A study of Mus musculus with 13 samples.

Results

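The 10 MHC class II presentation genes were followed in CD45- cells of the mouse thymus at steady state and after irradiation. They were taken by symbol from a table of 53379 genes, and all 10 were found. They are H2-Aa, H2-Ab1, H2-Eb1, Cd74, Ciita, H2-DMa, H2-DMb1, H2-Oa, Ctss and Ifi30. The data were 13 bulk RNA-seq libraries of thymic stroma from wild-type C57BL/6 mice of 2 months. The 4 conditions were steady state (untreated in the sample labels and PBS in the column names, n = 4) and 3 times after a sublethal dose of total body irradiation (SL-TBI), namely day 1, day 4 and day 7, with n = 3 for each. All libraries came from cells depleted of CD45+ hematopoietic cells, so what was read was a mixture of epithelial, endothelial and mesenchymal cells with whatever hematopoietic cells remained. Labels do not name the animals behind each library, although the study's methods treat bulk libraries as biological replicates, and p-values measure the spread between these libraries.

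MHC class II molecules are pairs of an alpha and a beta chain that carry peptides to the cell surface and show them to CD4+ T cells. The invariant chain, Cd74, escorts new pairs to endosomes, where cathepsins trim it and H2-DM exchanges its last fragment for a peptide, a step that H2-O restrains. Transcription of the set is switched on by the coactivator Ciita, which sits on RFX, CREB and NF-Y proteins bound at paired promoter elements called the X box and the Y box. In the thymus, cortical thymic epithelial cells (cTECs) use class II molecules to select CD4+ thymocytes, medullary thymic epithelial cells (mTECs) use them in tolerance, and B cells, dendritic cells and macrophages carry them as well.

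Sequence just upstream of each listed start was read from the RefSeq promoter table (GRCm38.p6) for 7 of the 10 genes. The 3 stretches shown were picked because they span the range seen, from matches to both elements to no match. Capitals mark the Y box ATTGG or its reverse complement, and the X box in its class II consensus form, searched on both strands in the 250 bases before the start. H2-Eb1 encodes a beta chain, and the stretch shown is chr17:34305717-34305866 on the plus strand. H2-Aa encodes an alpha chain, and its stretch is chr17:34287824-34287973 on the minus strand. Ifi30 encodes a thiol reductase that opens disulfide bonds of antigens in endosomes, and its stretch is chr8:70766664-70766813 on the minus strand.
H2-Eb1: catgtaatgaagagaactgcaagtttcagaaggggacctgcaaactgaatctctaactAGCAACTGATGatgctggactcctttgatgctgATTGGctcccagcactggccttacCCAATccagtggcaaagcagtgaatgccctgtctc
H2-Aa: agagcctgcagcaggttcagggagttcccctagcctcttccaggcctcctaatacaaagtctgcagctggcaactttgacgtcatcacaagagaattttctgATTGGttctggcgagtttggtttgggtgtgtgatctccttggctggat
Ifi30: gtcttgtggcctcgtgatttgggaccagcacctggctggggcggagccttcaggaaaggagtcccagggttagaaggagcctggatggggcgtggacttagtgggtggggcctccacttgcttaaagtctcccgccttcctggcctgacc

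H2-Eb1 held an X box at 92 to 82 bases before the start, a Y box at 59 to 55 and a second, inverted match at 35 to 31. H2-DMb1 held an X box at 95 to 85 and a Y box at 61 to 57, and H2-Oa an X box at 141 to 131 and a Y box at 43 to 39. Of the searched letters H2-Aa matched only the Y box, at 48 to 44, and H2-DMa matched the Y box at 198 to 194 of 1 of its listed starts. The X box was searched as 1 string, so an X box of other spelling would be missed. The H2-DMa windows end at chr17:34122831 and chr17:34125517, well before its counted exons, which begin at chr17:34135182. Sequence next to those exons was not searched. No match to these letters was found in the windows of Ctss, a cathepsin that degrades the invariant chain, or of Ifi30. Among 32851 promoters of the same length, 3.74% held the X box letters, 33.8% the Y box letters and 1.18% both, so that a Y box alone is common.

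H2-Aa (chr17:34282744-34287827, minus strand), H2-Ab1 (chr17:34263209-34269418), H2-Eb1 (chr17:34305877-34316199), H2-DMa (chr17:34135182-34139101), H2-DMb1 (chr17:34153072-34160230) and H2-Oa (chr17:34092340-34095234) lie in the mouse MHC in the deposited GRCm38 coordinates. Ciita (chr16:10488178-10527564), Ctss (chr3:95526786-95556403), Ifi30 (chr8:70762774-70766663, minus strand) and Cd74 (chromosome 18) lie elsewhere. Of the 50-base windows of H2-DMb1 transcripts, 22.7% are shared with its neighbor H2-DMb2, so the counts of both genes are uncertain over that sequence. Exons of other genes overlap 15.2% of H2-Oa and 8.66% of Ifi30.

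Library totals ran from 15721866 to 52056896 reads assigned to genes, and 19984 genes, all 10 class II genes among them, passed the filter on low counts. Within conditions, 4 libraries were set apart by a loading above 0.15 on the first component of the deviations. That component took 49.6% of the variance of the deviations over 11459 genes. On its other side, day 4 replicate 1 was at -0.412, day 1 replicate 2 at -0.363 and day 1 replicate 3 at -0.286. The 4 set apart were day 1 replicate 1 (0.649), day 4 replicates 2 (0.209) and 3 (0.203) and day 7 replicate 2 (0.259). In them Rfxap, a subunit of the RFX complex, was at 1.02, 3.62, 3.91 and 8.69 CPM, against 16.6 to 24.9 CPM in the other 9. Epithelial Epcam was at 14.0, 24.4, 25.5 and 16.6 CPM in those libraries and at 23.0 to 155 CPM in the other 9, with day 7 replicate 3 the lowest of the 9, so these ranges overlapped. Results at day 7 are given with and without the 4 libraries. Fibroblast markers (Pdgfra, Dcn and Col1a1) summed to 7939 CPM or more and endothelial markers (Pecam1, Cdh5 and Kdr) to 442 CPM or more in every library.

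By group mean, the summed class II genes were highest at day 4 and lowest at day 7, although the highest single library was one of steady state. The 10 genes summed to 4643 to 5808 CPM (read counts scaled to library size) at day 4 and to 996 to 1488 CPM at day 7. They summed to 2602 to 4371 CPM at day 1 and to 1412 to 6567 CPM at steady state, the widest range of the 4 conditions. A smaller share of a cell type and less RNA per cell cannot be told apart in bulk libraries.

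**Figure D1:**
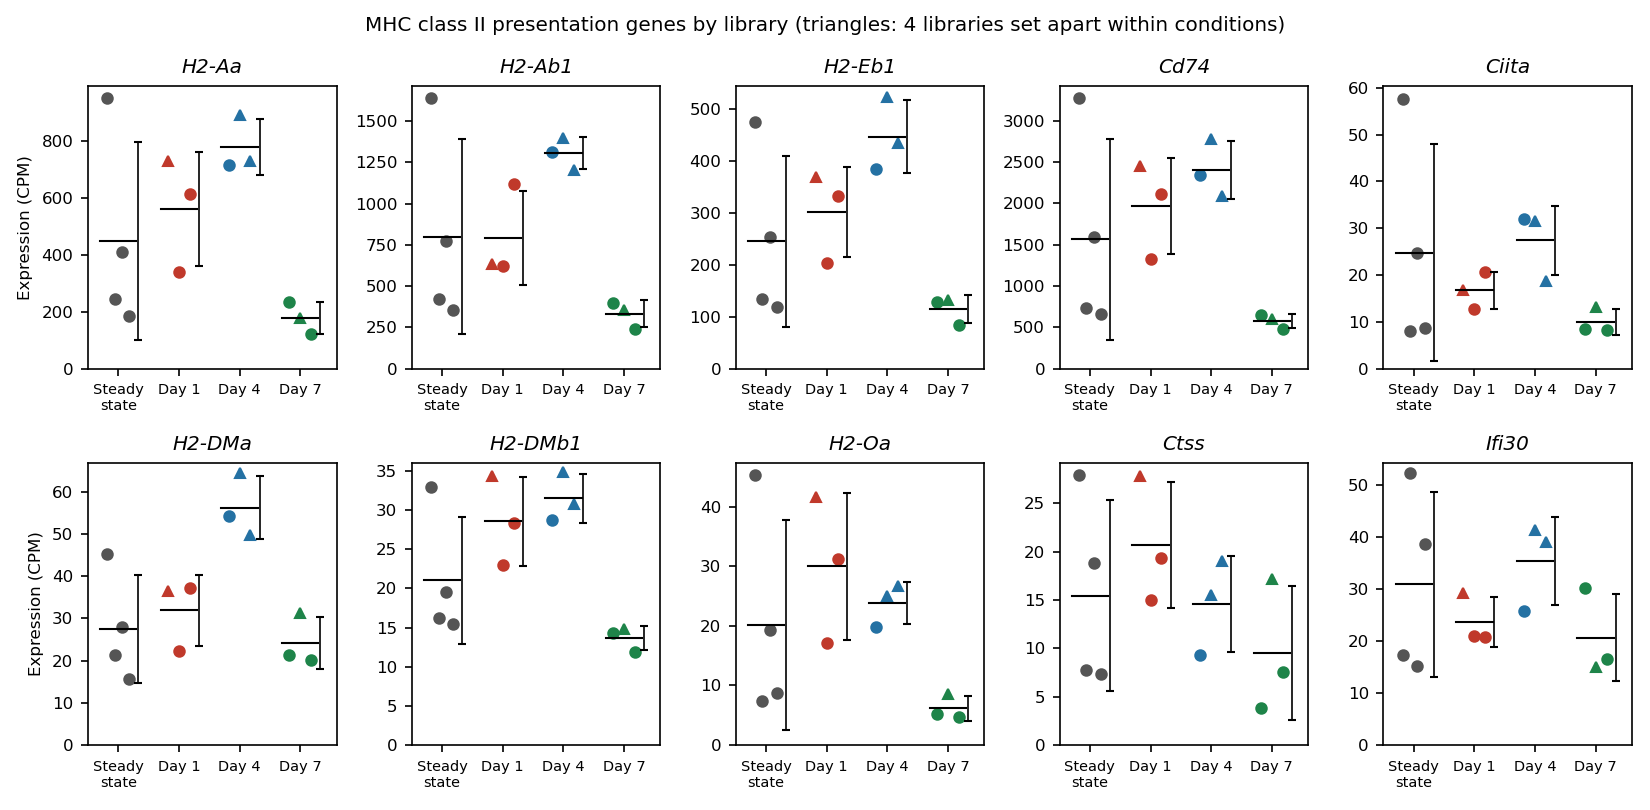
Expression of each class II gene in CPM (vertical axis, linear, starting at 0) by condition, with 1 point per library, the mean as a horizontal line and the SD (n = 4 at steady state, n = 3 on each day) as a bar to its right. Triangles mark the 4 libraries set apart within their conditions, and for H2-Aa the day 4 points (714 to 890 CPM) lie above all day 7 points (122 to 235 CPM).

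Per kb of exon, the order of the genes changed little between conditions. Cd74 was the highest in 13 of 13 libraries, with a mean of 1108 CPM per kb in the steady-state libraries, 1393 on day 1, 1707 on day 4 and 408 on day 7. H2-Ab1 followed at 488, 485, 798 and 202 CPM per kb, and exceeded H2-Aa in 12 of 13 libraries. H2-Aa and H2-Eb1 were neighbors that did not separate beyond their spread, at 239 ± 186 and 207 ± 139 CPM per kb (SD, n = 4) at steady state. Ifi30, H2-DMa, H2-Oa, H2-DMb1 and Ctss formed a lower tier, between 11.4 and 31.5 CPM per kb at steady state, within which neighbors changed places between libraries. Ciita, at 4.71 CPM per kb at steady state and 1.88 at day 7, was the lowest in 13 of 13 libraries.

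Between days 4 and 7 the peptide-binding chains fell together. The alpha chain gene H2-Aa was at 714, 890 and 730 CPM at day 4 and at 235, 178 and 122 CPM at day 7. Its partner H2-Ab1 was at 1312, 1399 and 1206 CPM at day 4 and at 396, 357 and 241 CPM at day 7. The beta chain gene H2-Eb1 was at 384, 523 and 435 CPM at day 4 and at 128, 132 and 84.2 CPM at day 7. All day 7 libraries lay below all day 4 libraries for these 3 genes. H2-Aa was 4.37-fold lower at day 7 (log2 fold change -2.13, SE 0.53, edgeR quasi-likelihood adjusted p = 0.0438). H2-Ab1 changed by -1.98 on the log2 scale (SE 0.50, adjusted p = 0.0451), and H2-Eb1 by -1.96 (SE 0.46, adjusted p = 0.035).

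Cd74, the invariant chain, was at 2347, 2783 and 2089 CPM at day 4 and at 646, 599 and 480 CPM at day 7. It fell by 2.07 on the log2 scale (SE 0.52, adjusted p = 0.0449), again with no overlap between days. Among the peptide editors, H2-DMb1 was at 28.8, 34.9 and 30.8 CPM at day 4 and at 14.3, 14.8 and 11.9 CPM at day 7, with a log2 fold change of -1.21 (SE 0.29, adjusted p = 0.0396). H2-DMa, its partner chain, was at 54.3, 64.5 and 49.8 CPM at day 4 and at 21.4, 31.4 and 20.1 CPM at day 7, which did not overlap but missed the threshold (log2 fold change -1.21, SE 0.36, adjusted p = 0.0823). H2-Oa, a chain of the restraining H2-O, was at 19.9, 25.0 and 26.7 CPM at day 4 and at 5.19, 8.60 and 4.69 CPM at day 7, with a log2 fold change of -1.95 (SE 0.60) and an adjusted p of 0.0892.

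The coactivator gene Ciita was at 31.9, 31.5 and 18.8 CPM at day 4 and at 8.39, 13.05 and 8.24 CPM at day 7. These values did not overlap, and the log2 fold change of -1.47 (SE 0.61) had an adjusted p of 0.216. The endosomal enzyme genes were the members whose days overlapped. Ctss was at 9.29, 15.5 and 19.0 CPM at day 4 and at 3.86, 17.2 and 7.54 CPM at day 7, with day 7 replicate 2 inside the day 4 range. Ifi30 was at 25.8, 41.4 and 39.0 CPM at day 4 and at 30.2, 15.04 and 16.5 CPM at day 7, with day 7 replicate 1 inside that range. Their log2 fold changes were -0.62 (SE 0.58, adjusted p = 0.619) and -0.78 (SE 0.44, adjusted p = 0.376).

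Of the 10 class II genes, 5 were therefore lower at day 7 than at day 4 past the threshold, and 0 were higher. Over all genes tested, 1.13% were called lower and 3.9% in either direction. The day 7 libraries lay wholly below those of day 4 for 8 of the 10, against 14% of all genes. The median log2 fold change of the 10 was -1.71, against 0.11 over all genes tested. The 5 calls sat close to the threshold, and how many were made depended on single libraries. Leaving out day 4 replicate 2, day 4 replicate 3, day 7 replicate 2 or day 7 replicate 3 gave 0 calls, and leaving out day 4 replicate 1 or day 7 replicate 1 gave 2. Keeping only genes with 10 counts or more throughout, or using the family of tags in the column names as a covariate, also gave 0, while DESeq2 called 7. Over all genes the share called moved as well, to 0.0725% without day 4 replicate 2, 0.0966% without day 4 replicate 3, 0.692% without day 7 replicate 2 and 1.18% without day 7 replicate 3. It was 2.18% without day 4 replicate 1, 7.26% without day 7 replicate 1, 2.51% under the count minimum, 4.27% with the tag covariate and 9.61% with DESeq2. With the 4 libraries set apart as a covariate there were 5 calls, in a fit that called 6.59% of all genes. Leaving those 4 libraries out left 1 library at day 4. The log2 fold changes of the 5 genes were then -1.996 for H2-Aa, -2.04 for H2-Ab1, -1.85 for H2-Eb1, -2.05 for Cd74 and -1.13 for H2-DMb1.

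**Figure D2:**
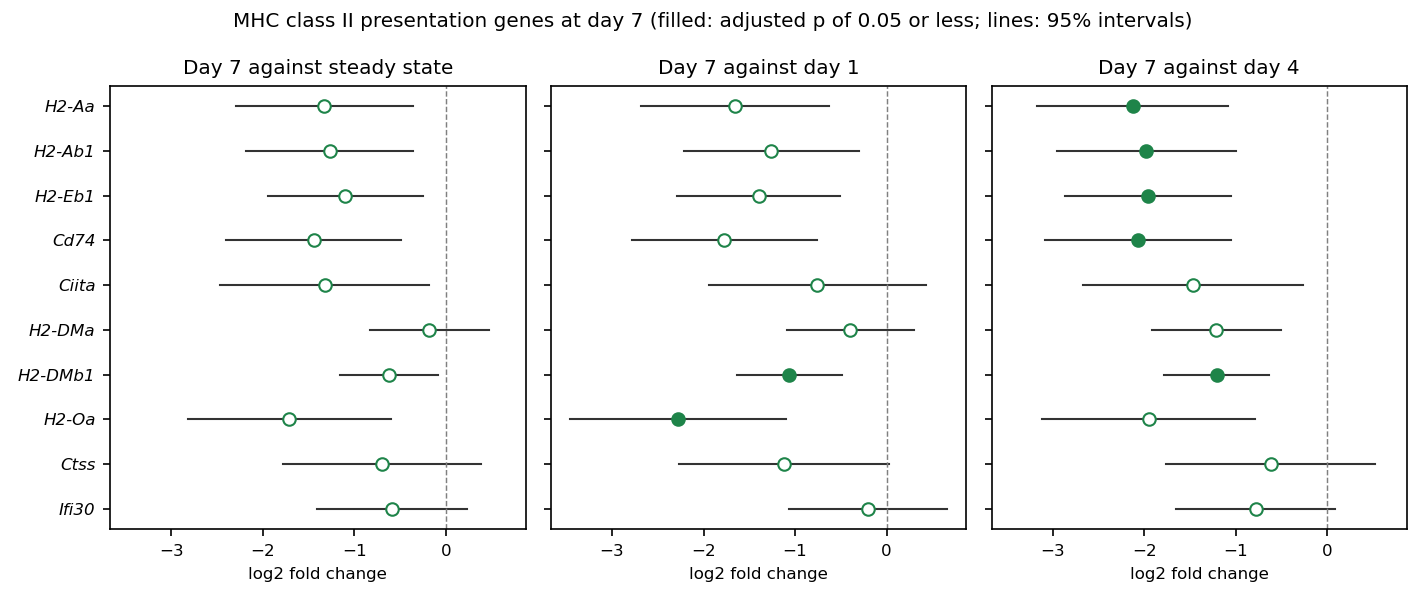
Log2 fold change (horizontal axis) of each class II gene at day 7 against steady state, day 1 and day 4, with lines for 95% intervals from a normal quantile and filled circles for an adjusted p of 0.05 or less. Every estimate lies below 0, and 0, 2 and 5 of 10 circles are filled from the left panel to the right.

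Markers of the epithelium moved in the same direction between those days. Krt18, a keratin of thymic epithelium, fell by 1.77 on the log2 scale (adjusted p = 0.0317) and Cdh1, the epithelial cadherin, by 1.89 (adjusted p = 0.0269). The mTEC markers Krt5 and Ccl21a fell by 2.61 (adjusted p = 0.0135) and 2.25 (adjusted p = 0.0245). Of the listed markers 2 of 4 for TECs, 2 of 6 for mTECs and 0 of 5 for cTECs passed the threshold, all downward. Over all genes 1.13% were called lower. Without the 4 libraries set apart, log2 fold changes were -1.81 for Krt18, -2.10 for Cdh1, -2.63 for Krt5 and -1.89 for Ccl21a, and none of the 4 genes passed. The summed TEC markers ran from 1790 to 2493 CPM at day 4 and from 576 to 923 CPM at day 7, and the summed mTEC markers from 1191 to 1605 CPM and from 183 to 413 CPM. The sum of the 5 cTEC markers ran from 641 to 1054 CPM at day 4 and from 277 to 463 CPM at day 7.

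Set against Krt8, Krt18 and Cdh1, the listed TEC markers other than Epcam, the class II chains were lowest at day 7. Ratios to marker sums were not among the planned results. The sum of H2-Aa, H2-Ab1, H2-Eb1 and Cd74 was 2.00 to 2.53 times that of the 3 markers at day 4 and 1.59 to 1.80 times at day 7. It was 2.37 to 3.53 times at day 1 and 2.35 to 3.88 times at steady state, so the day 7 ratios lay below all other libraries. Against the 5 cTEC markers the ratios were also lowest at day 7, at 3.03 to 3.56, with 3.66 to 20.3 in the other 10 libraries. Against the 6 mTEC markers they were not, at 3.40, 4.51 and 5.07 at day 7 and 3.58, 3.49 and 3.74 at day 4, which overlapped. With a TEC marker score as a covariate, the day 7 against day 4 log2 fold changes shrank to -1.09 for H2-Aa, -0.68 for H2-Ab1, -1.05 for H2-Eb1 and -0.94 for Cd74, and 0 of the 10 genes passed, in a fit that called 0.115% of all genes. With a score of Krt8, Krt18 and Cdh1 they were -0.16, 0.03, -0.21 and -0.01, which for H2-Ab1 is a change of sign, and 0.0751% of all genes were called. The TEC score itself (mean log2 CPM of its 4 markers) did not overlap between the days. It ran from 7.88 to 8.67 at day 4 and from 6.53 to 7.18 at day 7. Such fits therefore cannot separate epithelial content from the day, and its part in the fall was not tested.

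**Figure D3:**
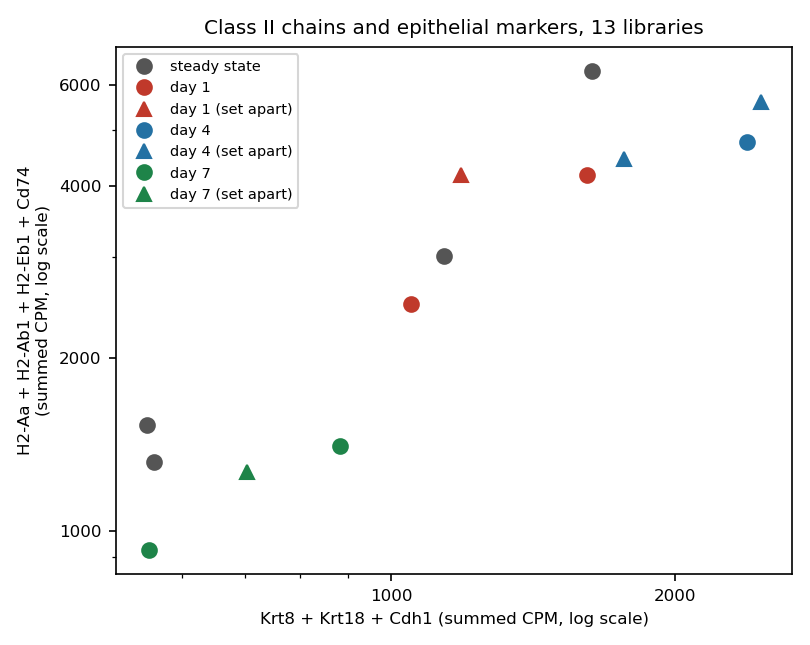
Summed CPM of H2-Aa, H2-Ab1, H2-Eb1 and Cd74 (vertical axis, log scale) against summed CPM of Krt8, Krt18 and Cdh1 (horizontal axis, log scale), with 1 point per library colored by condition and triangles for the libraries set apart. Day 7 libraries (927 to 1405 CPM) lie at the lower left and day 4 libraries (4459 to 5595 CPM) at the upper right, and the steady-state libraries run from 1318 to 6340 CPM across both.

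Summed over each list, markers of hematopoietic cells that carry class II overlapped between days 4 and 7. The macrophage markers summed to 50.7 to 57.8 CPM at day 4 and to 42.1 to 63.5 CPM at day 7, and the dendritic cell markers to 14.5 to 58.0 CPM and 39.5 to 52.3 CPM. Over days 4 and 7 the 5 B cell markers summed to 2.58 to 4.48 CPM and 2.36 to 15.2 CPM. The dendritic cell markers Itgax, Flt3, Xcr1, Clec9a and Siglech each stayed under 1 CPM at day 4, and Zbtb46 made up most of that list's sum. All 6 dendritic cell markers had positive log2 fold changes at day 7 against day 4, with a median of 2.12, and 0 were called. With a B cell and dendritic cell marker score as a covariate, 8 of the 10 class II genes were called lower, in a fit that called 4.36% of all genes. The part of macrophages in the class II levels was not tested. The 6 thymocyte markers summed to 9.16 to 12.2 CPM at day 4 and to 93.1 to 2238 CPM at day 7. All 6 were called higher, against 2.77% of all genes. Without the 4 libraries set apart, which left 1 library at day 4, their log2 fold changes were 4.57 to 9.71. Ptprc, which encodes CD45, was at 21.6, 606 and 224 CPM at day 7. Without the 2 day 7 libraries of highest Ptprc, the fall was -1.74 for H2-Aa and -1.91 for Cd74 on the log2 scale, with 1 library left at day 7 and 0 calls, where 0.0768% of all genes were called.

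**Figure D4:**
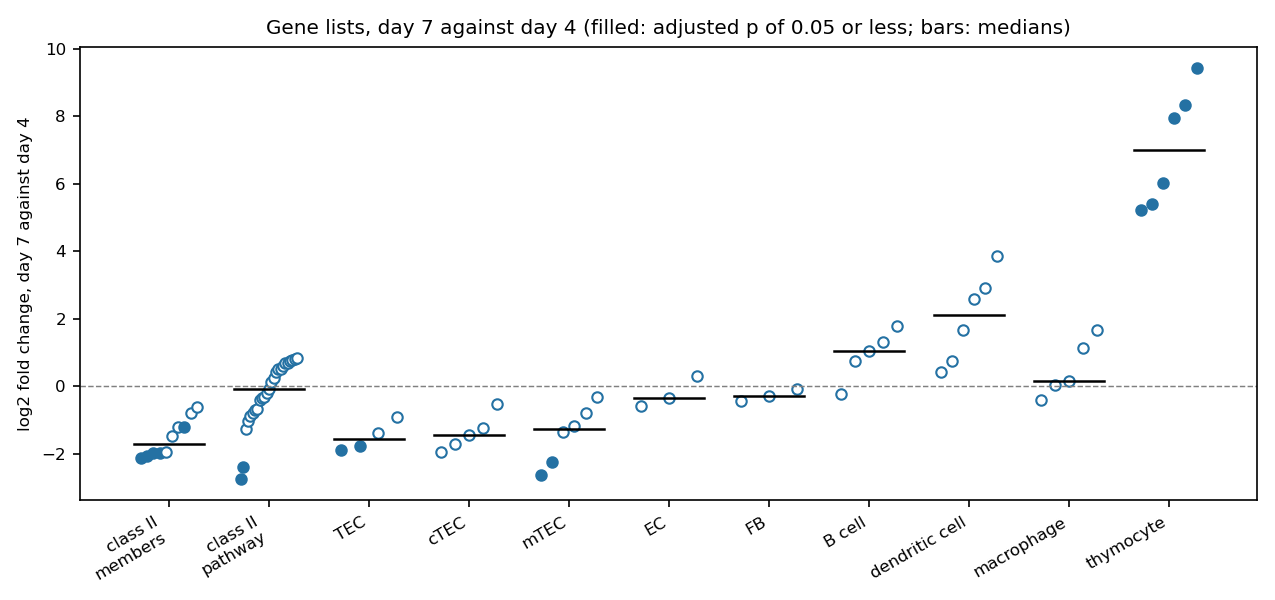
Log2 fold change at day 7 against day 4 (vertical axis) of the genes in each list (horizontal axis), with filled circles for an adjusted p of 0.05 or less and bars for list medians. The class II members and the TEC, cTEC and mTEC lists lie below 0, and the thymocyte list lies between 5.23 and 9.44.

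Against day 1, 2 of the 10 class II genes fell at day 7, against 4.45% of all genes called lower and 8.13% called in either direction. H2-Oa was at 41.6, 17.0 and 31.3 CPM at day 1 and fell by 2.28 on the log2 scale (SE 0.60, adjusted p = 0.0364). H2-DMb1 was at 34.3, 23.0 and 28.4 CPM at day 1 and fell by 1.06 (SE 0.29, adjusted p = 0.0428). For both, all day 7 values were below all day 1 values. H2-Aa, H2-Ab1 and H2-Eb1 had log2 fold changes of -1.65, -1.26 and -1.40 that missed the threshold. Cd74, at 2454, 1325 and 2114 CPM at day 1, had a log2 fold change of -1.77 (SE 0.51, adjusted p = 0.0521).

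The groups did not overlap for 6 of the 10 genes, against 14.8% of all genes lying wholly below. Those 6 were H2-Aa, H2-Ab1, H2-Eb1, Cd74, H2-DMb1 and H2-Oa. Ciita, H2-DMa, Ctss and Ifi30 overlapped, with log2 fold changes of -0.75, -0.40, -1.12 and -0.20. The median of the 10 was -1.19, against 0.05 over all genes. Leaving out any 1 library of days 1 and 7 gave 0 calls, except day 1 replicate 2, which left 1, in fits that called 2.28% to 9.4% of all genes. Without the 4 libraries set apart there were 0 calls, where 0.472% of all genes were called. Between these days 1 of 4 TEC markers (Cdh1, -1.74) and 3 of 6 mTEC markers (Ccl21a, -1.80, Krt14, -1.79, and Cd80, -2.01) were also called lower, against 4.45% of all genes. Without those 4 libraries these were at -1.85, -1.61, -1.45 and -1.48, and none passed.

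At day 1 no class II gene was called against steady state, where 2.35% of all genes were. At an unadjusted p under 0.05 the count was also 0 of 10, against 17.2% of all genes, and it was 0 with DESeq2, against 7.76%. Log2 fold changes ran from -0.57 for Ciita to 0.57 for H2-Oa, with adjusted p from 0.427 to 0.995. All 10 genes overlapped between the conditions, whereas 15.8% of all genes did not. H2-Aa, H2-Eb1 and Cd74 were at 0.32, 0.30 and 0.33, H2-DMa and H2-DMb1 at 0.22 and 0.44, and Ctss and Ifi30 at 0.42 and -0.38. H2-Ab1, the second most abundant per kb, differed by -0.01 (95% interval from a normal quantile -0.89 to 0.87). That interval leaves room for a change of almost 1 log2 unit either way.

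At day 4 again 0 of 10 were called against steady state, where 0.29% of all genes were. The unadjusted count was 2, against 13% of all genes, and DESeq2 gave 0, against 3.23%. H2-DMa, at 54.3, 64.5 and 49.8 CPM against 45.2, 21.3, 27.9 and 15.5 CPM, was the 1 gene of 10 whose groups did not overlap, against 6.44% of all genes lying wholly above. Its log2 fold change was 1.03 (SE 0.33, adjusted p = 0.241). The binding chains H2-Aa, H2-Ab1 and H2-Eb1 were at 0.80, 0.71 and 0.87, and Cd74 at 0.62. H2-DMb1 was at 0.58, H2-Oa at 0.24, Ciita at 0.14, Ifi30 at 0.20 and Ctss at -0.08. The median of the 10 was 0.60, against -0.13 over all genes.

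Against day 1, day 4 had 0 of 10 called, where 1.43% of all genes were. The unadjusted count was 1, against 13.7% of all genes, and DESeq2 gave 0, against 5.11%. Day 4 lay wholly above day 1 for H2-Ab1, H2-Eb1 and H2-DMa, that is for 3 of 10, against 12.6% of all genes. Their log2 fold changes were 0.72, 0.57 and 0.81, with adjusted p of 0.554, 0.618 and 0.336. H2-Aa, Cd74, Ciita, H2-DMb1 and Ifi30 were at 0.47, 0.29, 0.71, 0.14 and 0.58. H2-Oa and Ctss had the only negative values among the 10, -0.33 and -0.50.

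At day 7 the 10 genes all had negative log2 fold changes against steady state, and 0 were called. Of all genes 0.005% were called, which is 1 of 19984. At an unadjusted p under 0.05 there were 7 of 10, against 13.5% of all genes, and DESeq2 called 1, against 5.42%. Values ran from -0.18 for H2-DMa to -1.71 for H2-Oa, and the lowest adjusted p was 0.179. H2-Aa, H2-Ab1 and H2-Eb1 were at -1.33, -1.27 and -1.10, Cd74 at -1.44 and Ciita at -1.32. H2-DMb1, Ctss and Ifi30 were at -0.62, -0.70 and -0.58. Cd74 and H2-DMb1 lay wholly below steady state, that is 2 of 10, against 4.67% of all genes.

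Steady-state libraries differed widely among themselves. PBS day 1 replicate 2, a steady-state library named by its column, was the highest of the 4 for 9 of the 10 genes, Ifi30 being the exception, and PBS day 7 replicate 2 the lowest for 7. H2-Aa was at 950, 245, 410 and 186 CPM in PBS day 1 replicate 2, day 4 replicate 2, day 7 replicate 1 and day 7 replicate 2, a range of 5.12-fold, and Cd74 at 3274, 731, 1587 and 658 CPM. The summed TEC markers ran from 584 to 1790 CPM in the same libraries. Columns of steady-state libraries could not be tied to single replicate numbers in the labels.

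The genes fell into sets by how they moved across the 13 libraries. After subtracting condition means, log2 CPM of H2-Aa, H2-Ab1, H2-Eb1 and Cd74 correlated at Pearson r of 0.90 to 0.98 with each other. All pairs of the 8 genes other than Ctss and Ifi30 lay between 0.83 and 0.98. Ctss correlated with those 8 at 0.55 to 0.85. Ifi30 was at -0.36 to -0.75 with each of the other 9 after that subtraction, and at -0.33 to 0.16 (median 0.04) on the levels themselves. These values describe 13 libraries that share conditions, depth and cell mixture.

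Ifi30 was highest where the class II chains were low at steady state. It was at 52.3 and 38.6 CPM in the libraries with H2-Aa at 245 and 186 CPM, and at 17.3 and 15.3 CPM in those with H2-Aa at 950 and 410 CPM. In the steady-state libraries with H2-Aa at 245 and 186 CPM, fibroblast markers summed to 43329.7 and 24176.5 CPM. In those with H2-Aa at 950 and 410 CPM they summed to 7938.71 and 11422.5 CPM. With condition means subtracted, Ifi30 correlated with the fibroblast markers at Pearson r of 0.71. Each of the other class II genes was negative there, from -0.74 for H2-Ab1 to -0.96 for H2-Oa. The part of fibroblast content in these levels was not tested. The ratio of H2-Ab1 to H2-Aa stood apart in 1 library. It was 0.87 in CPM in day 1 replicate 1 and 1.57 to 2.01 in the other 12. H2-Ab1 was at 635 CPM in that library and H2-Aa at 727 CPM.

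By likeness to the mean of H2-Aa, H2-Ab1, H2-Eb1 and Cd74 over 13 libraries, the closest of 11449 other genes were H2-DMb2 (r = 0.99), Vav3 (0.99), BC064078 (0.98), Pax9 (0.98) and Acpp (0.98). With condition means subtracted they were H2-DMb2 (r = 0.996), Actn3 (0.98), Adam28 (0.98), Sfn (0.97) and Vav3 (0.97). H2-DMb2, a second beta chain of H2-DM that shares sequence with H2-DMb1, led both. It was at 70.9, 79.7 and 63.3 CPM at day 4 and at 17.97, 14.3 and 8.51 CPM at day 7.

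Among 26 other genes of the class II pathway, 25 passed the filter on low counts, and H2-Ea-ps, the inactive alpha chain of this strain, was at or near 0. Of the further chains, H2-DMb2 and H2-Eb2 were called lower at day 7, while H2-Ob was not called and overlapped between days 4 and 7. H2-DMb2 fell by 2.39 on the log2 scale between days 4 and 7 (adjusted p = 0.0452) and H2-Eb2 by 2.75 (adjusted p = 0.031). Only these 2 of the 25 pathway genes were called there, against 3.9% of all genes. H2-Eb2 was also lower at day 7 than at day 1 (-2.94, adjusted p = 0.0154). Without the 4 libraries set apart H2-DMb2 was at -2.41 and H2-Eb2 at -2.79 between days 4 and 7, H2-Eb2 was at -2.78 against day 1, and none of these passed.

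Among proteases, receptors and enhanceosome genes, calls were made in other comparisons. Ctsl, the cathepsin of cTECs, was at 2098, 2621 and 1978 CPM at day 4 and at 991, 961 and 1164 CPM at day 1. Day 4 lay wholly above day 1, and Ctsl was higher by 1.10 on the log2 scale (adjusted p = 0.0404). At day 7 against day 1, Ifngr1, the interferon-gamma receptor chain, was higher by 1.10 (adjusted p = 0.0275). Without the 4 libraries set apart these were 0.98 for Ctsl and 0.95 for Ifngr1, and neither passed. At days 4 and 7 against steady state 0 of 25 were called by edgeR, where 0.29% and 0.005% of all genes were. At an unadjusted p under 0.05 there were 4 and 3, against 13% and 13.5% of all genes. The median log2 fold change of the 25 at day 7 against day 4 was -0.07, beside -1.71 for the 10 class II genes.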

How the data were processed

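CD45- thymic stromal cells of 13 bulk libraries were sequenced from polyA RNA. The authors trimmed reads with Trimmomatic 0.38, aligned them with STAR 2.7.0e to GRCm38.p5 (GENCODE M12) and counted them per gene with featureCounts 1.6.3 under default settings, and deposited raw counts for 53379 genes. Counting settings on strand are not given in the sources used here. Symbols were matched for 53274 of them. Libraries were grouped by their labels (4 steady state, 3 at each day) and had 15721866 to 52056896 assigned reads. Reads without molecular identifiers are not independent molecules.

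Counts were analyzed in R 4.3.3 with edgeR 4.0.16. Genes were filtered with filterByExpr (19984 kept), scaled by TMM and fitted with 1 quasi-likelihood model of 4 conditions over all 13 libraries, and 6 contrasts were tested with Benjamini-Hochberg adjustment over all 19984 genes, at an adjusted p of 0.05 or less. CPM are TMM-scaled, and an SE is the absolute log2 fold change over the square root of F. The 95% intervals take that SE with a normal quantile, so they are narrower than the F-test implies. For H2-Eb1 at day 4 against steady state the interval was 0.05 to 1.68, with an unadjusted F-test p of 0.0568. The code was checked on simulated counts. DESeq2 1.42.0, RLE scaling, other filters, covariates, a replicate block and left-out libraries were tried. The last 3 of these to be chosen (the 4 libraries set apart as a covariate or left out, and the score of Krt8, Krt18 and Cdh1) were added after seeing the data. The members and gene lists were chosen with earlier results of these data known. Every member is given in all 6 comparisons, and of the pathway genes past the threshold those of largest absolute fold (up to 3 per comparison) are named. Values of 2 listed genes are not reported here, so fewer may be named. Steady-state columns were mapped to the group but not to single labelled replicates. Figures were drawn with matplotlib 3.10.9.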

Additional observations from a re-analysis of the deposited data

How the results depend on the processing

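At day 7 against day 4, 5 members were called. The count was 0 with at least 10 counts in every library, where 2.51% of all genes were called. With covariates it was 0 for the column tag family (4.27% of all genes), the TEC score (0.115%) and the Krt8, Krt18 and Cdh1 score (0.0751%). It was 5 for the 4 libraries set apart (6.59%) and 8 for the B cell and dendritic cell score (4.36%), and DESeq2 called 7 (9.61%). Leaving out the 2 day 7 libraries of highest Ptprc or the 4 libraries set apart left 1 library in a group there. At day 7 against day 1, 2 were called (8.13% of all genes). The count was 5 with DESeq2 (14.7%) or the B cell and dendritic cell score (11.9%). It was 4 with no filter (5.29%) or with only the conditions compared (6.23%), 3 with RLE scaling (8.31%) and 1 with at least 10 counts in every library (6.23%). It was 0 with the tag family (7.09%), the TEC score (4.98%), the Krt8, Krt18 and Cdh1 score (3.76%) and without the 4 set apart (0.472%). Leaving out 1 library gave 0 to 2 calls at day 7 against day 4 and 0 to 1 at day 7 against day 1. Those fits called 0.0725% to 7.26% and 2.28% to 9.4% of all genes. DESeq2 called 1 at day 7 against steady state (5.42% of all genes), and the B cell and dendritic cell score gave 1 at day 1 against steady state (3.1%). Counts were 0 under every alternative run at day 4 against steady state and against day 1. The cause was not tested.

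With replicate numbers as a replicate block over days 1, 4 and 7, calls were 0 at day 7 against day 4, 2 at day 7 against day 1 and 0 at day 4 against day 1. That fit called 0, 3.34% and 0.292% of all genes in the same order, so the first count says nothing particular to the class II genes. Deviations of libraries of the same number had a mean correlation of -0.25, against 0.10 for other pairs. Single pairs ran from -0.84 to 0.76. With 3 libraries a day, such deviations cannot show whether libraries of 1 number share an animal or a batch. No paired analysis was possible for steady state because its columns carry no label number.

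Of 1110 alternatives for the 60 gene results, 934 kept direction and side of the threshold, 85 lost and 24 gained significance, and 67 changed sign, of which 1 was for a result past the threshold. Log2 fold changes that turned sign were as follows. At day 1 against steady state, H2-Ab1 was 0.048 with DESeq2 and RLE scaling, 0.0074 with no filter, 0.11 with the tag family, 0.43 with the B cell and dendritic cell score, 0.016 with the 4 libraries as a covariate and 0.14 without them. At day 4 against steady state, Ctss was 0.015 with DESeq2, 0.016 with RLE scaling, 0.038 with only the conditions compared and 1.67 with the B cell and dendritic cell score. With that score Ciita was 0.44 at day 1, Ifi30 -0.72 at day 4 and H2-DMa 0.082 at day 7 against steady state, and H2-Oa 0.13 and Ctss 0.12 at day 4 against day 1. With the TEC score, Ifi30 was 0.0022 at day 1, Ciita -0.24 at day 4 and H2-DMa 0.23 at day 7 against steady state, Cd74 -0.043 at day 4 against day 1, Ciita 0.47 and H2-DMa 0.079 at day 7 against day 1, and Ciita 0.20 at day 7 against day 4. Without the 2 day 7 libraries of highest Ptprc, Ifi30 was 0.0017 against steady state and 0.40 against day 1. With the 4 libraries as a covariate H2-Oa was -0.20 at day 4 against steady state, and without them it was -0.018, Ifi30 was -0.26 there and 0.16 at day 7 against day 1.

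With the score of Krt8, Krt18 and Cdh1, values at day 1 against steady state were -0.11 for H2-Aa and H2-Eb1, -0.079 for Cd74, -0.12 for H2-DMa and 0.21 for Ifi30. At day 4 against steady state they were -0.36 for H2-Aa, -0.48 for H2-Ab1, -0.17 for H2-Eb1, -0.54 for Cd74, -1.29 for Ciita and -0.88 for H2-Oa, and H2-DMa was 0.27 at day 7. At day 4 against day 1 they were -0.25 for H2-Aa, -0.068 for H2-Eb1, -0.46 for Cd74, -0.27 for Ciita and -0.18 for H2-DMb1. At day 7 against day 1 they were 0.056 for H2-Ab1, 0.96 for Ciita and 0.39 for H2-DMa, and against day 4 they were 0.030 for H2-Ab1, 1.23 for Ciita, 0.014 for H2-DMa, 0.16 for H2-Oa and 0.84 for Ctss. Leaving out 1 library moved H2-Ab1 from -0.34 to 0.66 and Ciita from -0.86 to 0.32 at day 1 against steady state, Ctss from -0.31 to 0.47, Ciita from -0.15 to 1.08 and H2-Oa from -0.036 to 1.11 at day 4 against steady state, and H2-DMa from -0.37 to 0.15 at day 7 against steady state. Standard errors of 0.27 to 0.58 on the log2 scale against steady state limited what 3 libraries a day and 4 controls could detect.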
